A study of Homo sapiens with 12 samples.

Results

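The genes described here encode synaptic and neuronal cell adhesion molecules. A list of 59 such genes was set by name, with earlier results of these data known and the clustered protocadherins left out. Of these, 56 had a named transcript among the 19972 transcripts of the deposited counts. NRXN3, CDH13 and PCDH18 had none and were not analysed here. The cells were human induced neurons made from H1 human embryonic stem cells by overexpression of Ngn2, a proneural transcription factor switched on with doxycycline (2 µg/mL), and harvested at day in vitro 14 in cycloheximide (100 µg/mL). All cultures also received cytosine arabinoside (4 µM), which acts against dividing cells, with the medium exchanges of day 5 and day 10, and none received glia. They were either wt/wt, with wild-type LLPH alleles, or Nterm/Nterm, with an LLPH allele named Nterm on both copies, and each genotype had 3 RNA-seq libraries, which measure mRNA, and 3 Ribo-seq libraries, which count footprints, the mRNA fragments covered by ribosomes, made from cytoplasmic lysate. The labels do not say what Nterm alters in LLPH or whether the libraries of 1 genotype come from separate clones or cultures, and the p-values therefore rest on library-to-library spread, which may be technical. Genotypes are those of the sample titles. For 6 of the 12 samples, the Ribo-seq ones, a genotype tag names the other genotype, and with it every footprint direction below would be the opposite one.

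Library totals ran from 18944427 to 25089790 counts in RNA and from 12652833 to 16356419 in footprints. Each of the 56 adhesion transcripts passed the low-count filter in both assays. Their counts per library ran from 124 to 25991 in RNA, with a median of 1490, and from 113 to 21972 in footprints, and 113 counts carry a counting error of 9.41%. LLPH itself had 6.72, 7.92 and 7.07 CPM in wt/wt and 3.12, 1.71 and 2.37 CPM in Nterm/Nterm in footprints (log2 change, Nterm/Nterm minus wt/wt, -1.60 ± 0.19 SE, adjusted p = 1.77e-05) and no called change in RNA (log2 change 0.14 ± 0.06 SE, adjusted p = 0.135). CPM is the count relative to the scaled library total. It is not divided by transcript length, so it is compared below between genotypes and not between genes. Libraries are named by genotype and replicate number. Genes are called at an adjusted p under 0.05 (edgeR's quasi-likelihood test, Benjamini-Hochberg adjustment over all transcripts tested).

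Adhesion molecules of the neuronal surface bind partners on the facing cell or on the same membrane. Presynaptic neurexins and LAR-type receptor phosphatases bind postsynaptic neuroligins and leucine-rich repeat proteins, and teneurins bind latrophilins, which in turn bind FLRT proteins. Cadherins and protocadherins mostly bind their own kind in the presence of calcium, while the immunoglobulin proteins of the NCAM and L1 families guide and bundle axons.

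In RNA, more adhesion genes were higher than lower in Nterm/Nterm neurons, and the changes were small. Of the 56 genes, 16 were higher and 4 lower (28.6% and 7.14%), against 7.25% and 10.6% of all 14659 transcripts tested, and against 8.92% and 11.7% of the 10852 tested transcripts with a name. The list was chosen with earlier results of these data known, so these shares describe the list and do not test it. The median log2 change was 0.12 over the adhesion genes and 0.01 over all named transcripts. Among the 20 called genes the size of the log2 change ran from 0.15 to 0.74, with a median of 0.24. The higher ones were NCAM1, NCAM2, THY1, PTPRS, TENM1, TENM2, TENM4, ADGRL1, FLRT2, CDH2, CDH10, CDH11, PCDH9, PCDH10, PCDH17 and PCDH19, and the lower ones PTPRF, TENM3, CDH7 and PCDH1. The 2 genotypes did not overlap in CPM for any of these 20, nor for 11 further members, which makes 31 of 56 (55.4%) where all tested transcripts gave 36.2%. Single libraries moved these counts: leaving out wt/wt 1 gave 5 higher and 2 lower genes, leaving out wt/wt 2 gave 6 and 1, and leaving out Nterm/Nterm 3 gave 9 and 4. The shares of all transcripts called in these fits are not given here, so the counts do not compare with the shares above. In the same RNA libraries 7 of 14 neuronal markers were higher and 9 of 11 named mesenchymal markers lower, and their part in these counts was not tested. In bulk libraries such as these, fewer cells of a type and less RNA per cell cannot be told apart.

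In footprints, too, more adhesion genes were higher than lower, with fewer calls than in RNA. Of the 56 genes, 10 had more and 3 fewer footprints in Nterm/Nterm (17.9% and 5.36%), against 4.36% and 8.91% of all 13566 transcripts tested and 4.81% and 8.14% of the 10738 with a name. The limit set by the choice of the list holds here too. The median log2 change was 0.09, beside 0.02 over all named transcripts. More footprints were found for CADM4, NLGN2, TENM1, TENM2, TENM4, CDH4, CDH11, PCDH10, PCDH17 and PCDH19, and fewer for PTPRF, TENM3 and CDH7. The genotypes did not overlap for 24 of 56 genes (42.9%), where all tested transcripts gave 30.7%. Leaving out wt/wt 1 left 4 genes with more footprints, and 6, 6 and 5 were left on dropping wt/wt 2, Nterm/Nterm 1 and Nterm/Nterm 3. For these fits, too, the shares of all transcripts are not given here.

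**Figure D1:**
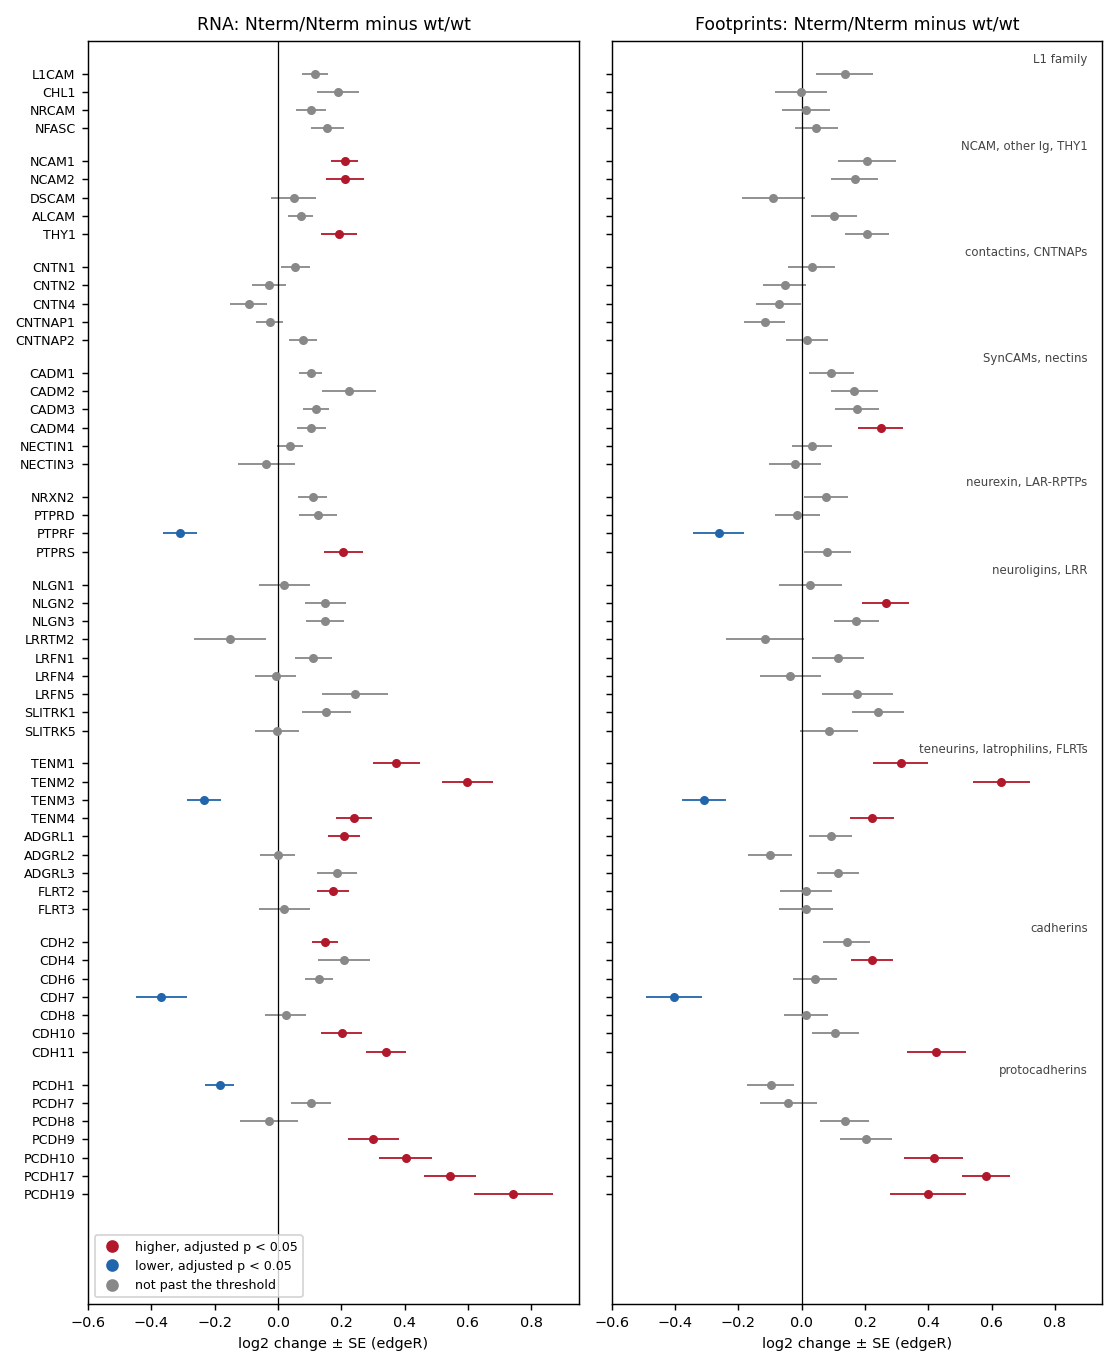
Log2 change of each of the 56 adhesion genes, Nterm/Nterm minus wt/wt, in RNA (left) and footprints (right), grouped by role; points are edgeR estimates from 3 against 3 libraries, bars are 1 SE, and colour marks calls at an adjusted p under 0.05. In RNA, 16 points are called higher and 4 lower; in footprints, 10 and 3.

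The largest called RNA changes among the adhesion genes were in PCDH19, TENM2 and PCDH17, and the 250 bases before the RefSeq gene start of these 3 are shown for reference (RefSeq, build GRCh38.p14). The window of PCDH19 is chrX:100410274-100410523, minus strand, that of TENM2 is chr5:167072992-167073241, plus strand and that of PCDH17 is chr13:57631494-57631743, plus strand. Sequences run 5′ to 3′ along the gene, and capitals mark E-boxes (CANNTG), the letters bound by basic helix-loop-helix factors such as Ngn2.
PCDH19: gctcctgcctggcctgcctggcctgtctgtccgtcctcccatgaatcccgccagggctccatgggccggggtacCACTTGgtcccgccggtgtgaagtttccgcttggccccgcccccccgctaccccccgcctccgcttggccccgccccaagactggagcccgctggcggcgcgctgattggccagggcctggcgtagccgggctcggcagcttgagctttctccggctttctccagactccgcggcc
TENM2: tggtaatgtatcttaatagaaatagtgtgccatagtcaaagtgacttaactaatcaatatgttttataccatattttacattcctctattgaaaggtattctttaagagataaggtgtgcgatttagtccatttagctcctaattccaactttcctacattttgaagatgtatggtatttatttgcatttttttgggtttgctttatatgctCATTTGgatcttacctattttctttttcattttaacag
PCDH17: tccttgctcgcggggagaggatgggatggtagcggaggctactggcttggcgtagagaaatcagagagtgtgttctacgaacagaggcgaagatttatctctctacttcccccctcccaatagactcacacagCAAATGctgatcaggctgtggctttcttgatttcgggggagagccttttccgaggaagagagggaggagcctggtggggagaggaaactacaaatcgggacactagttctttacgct
Each window holds 1 E-box, CACTTG in PCDH19, CATTTG in TENM2 and CAAATG in PCDH17, and none holds the forms CAGATG or CAGCTG. Promoters were found for 46 of the 56 genes. Among these 46, 58.7% held a CANNTG, against 61.8% of all 35116 promoters of that length. Searched on both strands, as all motifs were, the E-box form CAGATG was in 15.2% against 12.2%, the E-box form CAGCTG in 13.0% against 14.0%, and the TATA-box letters TATAAA in 6.52% against 10.7%. TENM2 stood apart from the others shown by composition, with 29.2% G or C where PCDH19 had 72.0% and PCDH17 52.8%, and a median of 62.8% over the 46. A match is a description of letters, and the start used in these neurons was not measured. The TENM2 window may therefore not be the promoter used here, and its composition may not be a promoter trait.

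Teneurins, large transmembrane proteins that join pre- and postsynaptic cells, moved in opposite directions within the family: TENM1, TENM2 and TENM4 rose and TENM3 fell, in RNA and in footprints alike. TENM2 RNA was at 61.0, 68.1 and 72.5 CPM in wt/wt and 90.8, 100.2 and 114 CPM in Nterm/Nterm. Every Nterm/Nterm library lay above every wt/wt library, a 1.51-fold difference with a log2 change of 0.60 ± 0.08 SE, adjusted p = 0.000835. In footprints TENM2 stood at 81.8, 78.0 and 97.2 CPM in wt/wt and 118, 128 and 151 CPM in Nterm/Nterm, a log2 change of 0.63 ± 0.09 SE, adjusted p = 0.00012. Its call held in all 6 fits that left out 1 library in RNA and in all 6 in footprints. TENM3 RNA ran the other way, at 92.3, 93.0 and 85.8 CPM in wt/wt and 76.8, 81.2 and 72.5 CPM in Nterm/Nterm, with no overlap (log2 change -0.23 ± 0.05 SE, adjusted p = 0.0121). TENM3 footprints were at 118, 104 and 109 CPM in wt/wt and 84.4, 92.5 and 90.3 CPM in Nterm/Nterm (log2 change -0.31 ± 0.07 SE, adjusted p = 0.00568). The footprint call held in all 6 fits, and the RNA call was lost without wt/wt 1 (0.0689) or wt/wt 2 (0.0679), adjusted p in brackets.

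Since both genes were counted in the same libraries, the ratio of TENM2 to TENM3 counts is free of library scaling. It was 0.660, 0.732 and 0.845 in wt/wt RNA and 1.18, 1.23 and 1.57 in Nterm/Nterm RNA, and in footprints 0.691, 0.748 and 0.894 against 1.39, 1.39 and 1.67. In each assay every Nterm/Nterm ratio lay above every wt/wt ratio. This follows from the opposite calls of the 2 genes and is not a further test. As a share of all teneurin RNA counts, TENM2 went from 22.4 ± 1.44% to 28.9 ± 1.39% (SD, n = 3) and TENM3 from 30.2 ± 1.85% to 22.01 ± 2.25%, while TENM4 stood at 35.2 ± 0.511% and 35.6 ± 1.21%. These shares are of counts and not of molecules, since transcript length was not divided out.

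TENM1 RNA was at 34.5, 35.4 and 40.1 CPM in wt/wt and 43.3, 48.6 and 50.5 CPM in Nterm/Nterm (log2 change 0.37 ± 0.07 SE, adjusted p = 0.00627), and its footprints at 33.8, 30.9 and 36.3 CPM in wt/wt and 39.5, 39.6 and 45.9 CPM in Nterm/Nterm (log2 change 0.31 ± 0.09 SE, adjusted p = 0.021). The groups were apart in both assays, though the footprint call was lost without Nterm/Nterm 3 (0.134), wt/wt 1 (0.0729) or wt/wt 2 (0.142). TENM4 RNA was at 105, 105 and 107 CPM in wt/wt and 117, 119.9 and 137 CPM in Nterm/Nterm (log2 change 0.24 ± 0.06 SE, adjusted p = 0.0138), a call lost without wt/wt 1 (0.0746) or wt/wt 2 (0.0693). TENM4 footprints were at 114, 116 and 127 CPM in wt/wt and 132, 135 and 149 CPM in Nterm/Nterm (log2 change 0.22 ± 0.07 SE, adjusted p = 0.0388), a call lost without Nterm/Nterm 2 (0.0533), Nterm/Nterm 3 (0.201), wt/wt 1 (0.176) or wt/wt 2 (0.142). In both genes and both assays, every Nterm/Nterm library lay above every wt/wt library.

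Of the 5 latrophilin and FLRT genes, 2 were called in RNA. Of the latrophilins, adhesion G protein-coupled receptors, ADGRL1 rose in RNA by 0.21 ± 0.05 on the log2 scale (adjusted p = 0.0152), a call lost without wt/wt 1 (0.0603) or wt/wt 2 (0.0935). ADGRL2 had a log2 change of -0.0015 ± 0.06 and ADGRL3 of 0.19 ± 0.06 (adjusted p = 0.0626), neither past the threshold. FLRT2, a leucine-rich repeat ligand of latrophilins, rose in RNA by 0.17 ± 0.05 on the log2 scale (adjusted p = 0.035), a call lost in 4 of 6 fits, those without Nterm/Nterm 2 (0.0805), Nterm/Nterm 3 (0.0849), wt/wt 1 (0.106) or wt/wt 2 (0.16). FLRT3 had a log2 change of 0.02 ± 0.08. None of these 5 genes was called in footprints, where their log2 changes ran from -0.10 for ADGRL2 to 0.12 for ADGRL3.

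**Figure D2:**
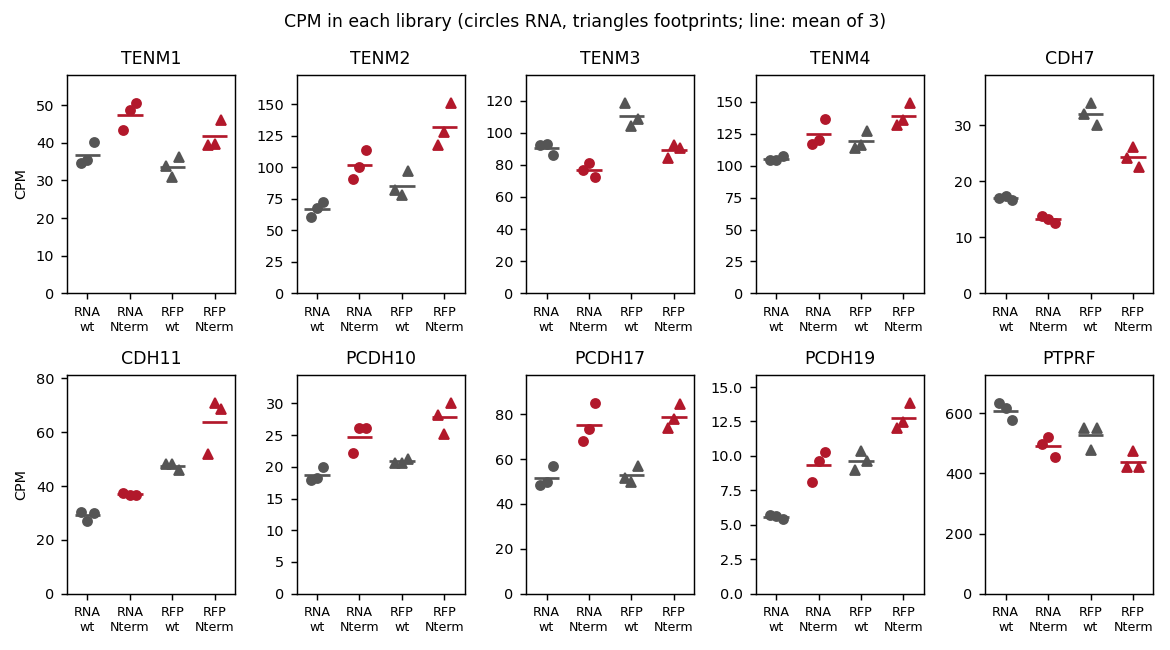
CPM of 10 adhesion genes in each library, with circles for RNA and triangles for footprints, grey for wt/wt and red for Nterm/Nterm; lines are means of 3 libraries and each vertical axis starts at 0. In every panel the red points of an assay lie wholly above or wholly below the grey ones; TENM3, CDH7 and PTPRF are the panels where red lies below.

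Cadherins also split. CDH11, a type II cadherin of neurons and of mesenchymal cells, rose, and CDH7, a type II cadherin known from motor neurons and neural crest, fell. CDH11 RNA was at 30.5, 27.0 and 30.0 CPM in wt/wt and 37.5, 36.6 and 36.8 CPM in Nterm/Nterm (log2 change 0.34 ± 0.06 SE, adjusted p = 0.00447), with no overlap. CDH11 footprints were at 48.3, 48.4 and 46.1 CPM in wt/wt and 52.0, 70.7 and 68.8 CPM in Nterm/Nterm (log2 change 0.43 ± 0.09 SE, adjusted p = 0.00446), and Nterm/Nterm library 1 lay closest to wt/wt. Both calls held in all 6 fits that left out 1 library. CDH7 RNA was at 17.0, 17.5 and 16.7 CPM in wt/wt and 13.8, 13.3 and 12.5 CPM in Nterm/Nterm (log2 change -0.37 ± 0.08 SE, adjusted p = 0.00932), a call lost only without wt/wt 2 (0.0506). CDH7 footprints were at 32.0, 34.0 and 30.1 CPM in wt/wt and 24.1, 26.1 and 22.6 CPM in Nterm/Nterm (log2 change -0.40 ± 0.09 SE, adjusted p = 0.00495), called in all 6 fits. Every Nterm/Nterm library of CDH7 lay below every wt/wt library in both assays. The ratio of CDH11 to CDH7 counts went from 1.71 ± 0.146 to 2.80 ± 0.123 in RNA and from 1.49 ± 0.0574 to 2.64 ± 0.447 in footprints (SD, n = 3). It restates the opposite calls of these genes and is not a further test.

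Smaller changes were called in the other cadherins. CDH2, the N-cadherin of neurons and their progenitors, was at 174, 184 and 182 CPM in wt/wt and 202, 196 and 202 CPM in Nterm/Nterm in RNA (log2 change 0.15 ± 0.04 SE, adjusted p = 0.0272), and its footprints had a log2 change of 0.14 ± 0.07 (adjusted p = 0.223). The CDH2 RNA call was lost without Nterm/Nterm 1 (0.0802), Nterm/Nterm 3 (0.0502), wt/wt 1 (0.153) or wt/wt 2 (0.0767). CDH10 RNA rose by 0.20 ± 0.06 on the log2 scale (adjusted p = 0.0473), and the call was lost in each of the 6 fits that left out 1 library (adjusted p up to 0.196). CDH4, the R-cadherin, was called in footprints only, at 65.6, 69.7 and 68.1 CPM in wt/wt and 76.9, 80.7 and 79.7 CPM in Nterm/Nterm (log2 change 0.22 ± 0.07 SE, adjusted p = 0.0315), and that call too was lost in each of the 6 fits (adjusted p up to 0.115). CDH6 (log2 change 0.13 ± 0.04 in RNA, adjusted p = 0.0564) and CDH8 (0.02 ± 0.06) passed in neither assay.

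Of the 7 protocadherins outside the clusters, 4 rose in RNA and PCDH1 fell. PCDH19, a homophilic adhesion protein that also pairs with N-cadherin, had the largest RNA change of all 56 genes, from 5.71, 5.67 and 5.39 CPM in wt/wt to 8.13, 9.61 and 10.3 in Nterm/Nterm, a 1.67-fold difference (log2 change 0.74 ± 0.12 SE, adjusted p = 0.00265). Its footprints were at 9.01, 10.4 and 9.60 CPM in wt/wt and 12.01, 12.4 and 13.8 CPM in Nterm/Nterm (log2 change 0.40 ± 0.12 SE, adjusted p = 0.0332). The groups did not overlap in either assay. The RNA call held in all 6 fits, and the footprint call in 1 of 6, being lost without Nterm/Nterm 1 (0.0521), Nterm/Nterm 3 (0.154), wt/wt 1 (0.135), wt/wt 2 (0.0547) or wt/wt 3 (0.0624).

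PCDH17, a protocadherin of presynaptic and postsynaptic membranes, was at 48.4, 49.9 and 56.9 CPM in wt/wt and 67.9, 73.5 and 84.8 CPM in Nterm/Nterm in RNA (log2 change 0.54 ± 0.08 SE, adjusted p = 0.00151). In footprints it was at 51.7, 49.7 and 56.9 CPM in wt/wt and 74.0, 77.7 and 84.7 CPM in Nterm/Nterm (log2 change 0.58 ± 0.08 SE, adjusted p = 4.24e-05). All Nterm/Nterm libraries lay above all wt/wt libraries, and both calls held in all 6 fits. PCDH10 was at 18.0, 18.2 and 20.0 CPM in wt/wt and 22.1, 26.1 and 26.1 CPM in Nterm/Nterm in RNA (log2 change 0.40 ± 0.08 SE, adjusted p = 0.00799), a call lost without wt/wt 1 (0.0506), and at 20.6, 20.7 and 21.3 CPM in wt/wt and 28.2, 25.2 and 30.0 CPM in Nterm/Nterm in footprints (log2 change 0.42 ± 0.09 SE, adjusted p = 0.00516), where the call held in all 6 fits. All PCDH10 libraries of Nterm/Nterm lay above those of wt/wt. PCDH9 RNA rose from 33.2, 36.8 and 34.7 to 37.7, 43.5 and 47.7 CPM (log2 change 0.30 ± 0.08 SE, adjusted p = 0.0236), a call lost without Nterm/Nterm 3 (0.0709), wt/wt 1 (0.119) or wt/wt 2 (0.0536). PCDH9 footprints had a log2 change of 0.20 ± 0.08 (adjusted p = 0.108). PCDH1 RNA fell, with a log2 change of -0.18 ± 0.05 SE, adjusted p = 0.017, a call lost without wt/wt 1 (0.101) or wt/wt 2 (0.0525), and its footprints had a log2 change of -0.10 ± 0.07 (adjusted p = 0.425). PCDH7 (log2 change 0.10 ± 0.06 in RNA) and PCDH8 (-0.03 ± 0.09) passed in neither assay.

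Among the presynaptic organisers, PTPRF and PTPRS, which belong to 1 family of receptor phosphatases, changed in opposite directions in RNA. PTPRF, known as LAR and expressed in many epithelial tissues as well as neurons, was at 633, 616 and 577 CPM in wt/wt and 497, 523 and 455 CPM in Nterm/Nterm in RNA (log2 change -0.31 ± 0.05 SE, adjusted p = 0.00305), a call that held in all 6 fits. PTPRF footprints were at 553, 477 and 551 CPM in wt/wt and 420.3, 475 and 421 CPM in Nterm/Nterm (log2 change -0.26 ± 0.08 SE, adjusted p = 0.0338). In footprints the nearest libraries of the genotypes, wt/wt library 2 and Nterm/Nterm library 2, almost touched, and the call was lost without Nterm/Nterm 1 (0.148), Nterm/Nterm 3 (0.117), wt/wt 1 (0.123) or wt/wt 3 (0.0773). PTPRS RNA was at 393, 399 and 425 CPM in wt/wt and 432, 450.4 and 519.9 CPM in Nterm/Nterm (log2 change 0.21 ± 0.06 SE, adjusted p = 0.0379), a call lost without Nterm/Nterm 3 (0.0901), wt/wt 1 (0.165) or wt/wt 2 (0.146), and its footprints had a log2 change of 0.08 ± 0.07 (adjusted p = 0.525). PTPRD had a log2 change of 0.13 ± 0.06 and the neurexin NRXN2 of 0.11 ± 0.04 in RNA, and neither passed in either assay.

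Of their 9 postsynaptic partners, NLGN1, NLGN2, NLGN3, LRRTM2, LRFN1, LRFN4, LRFN5, SLITRK1 and SLITRK5, none was called in RNA, where log2 changes ran from -0.15 (LRRTM2) to 0.24 (LRFN5). The SE of LRRTM2 was 0.11, where it ran down to 0.04 for a called gene, CDH2. NLGN2, the neuroligin of inhibitory synapses, was called in footprints, at 67.0, 77.2 and 79.0 CPM in wt/wt and 91.0, 91.7 and 85.9 CPM in Nterm/Nterm (log2 change 0.26 ± 0.07 SE, adjusted p = 0.0206), a call lost without Nterm/Nterm 1 (0.0654), Nterm/Nterm 2 (0.0546) or wt/wt 1 (0.119). NLGN2 RNA had a log2 change of 0.15 ± 0.06 (adjusted p = 0.127), and its change in footprints relative to RNA was not called (log2 0.12 ± 0.10, unadjusted p = 0.269). SLITRK1 footprints had a log2 change of 0.24 ± 0.08, just short of the threshold (adjusted p = 0.0556).

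Among immunoglobulin and related surface proteins, NCAM1, NCAM2 and THY1 rose in RNA and none fell. NCAM1, which gave the most RNA counts of the 56 (21106 to 25991 per library, followed by L1CAM with 16315 to 20807), was at 956, 972 and 1038 CPM in wt/wt and 1129, 1108 and 1193 CPM in Nterm/Nterm (log2 change 0.21 ± 0.04 SE, adjusted p = 0.00786), a call lost without wt/wt 1 (0.061) or wt/wt 2 (0.0575). NCAM2 was at 57.3, 58.7 and 63.4 CPM in wt/wt and 64.3, 71.6 and 71.8 CPM in Nterm/Nterm (log2 change 0.21 ± 0.06 SE, adjusted p = 0.0284), a call kept in 2 of 6 fits and lost without Nterm/Nterm 2 (0.0717), Nterm/Nterm 3 (0.07), wt/wt 1 (0.141) or wt/wt 2 (0.115). THY1, a GPI-anchored protein of neurons and fibroblasts, was at 55.0, 57.8 and 59.4 CPM in wt/wt and 66.6, 61.1 and 69.1 CPM in Nterm/Nterm (log2 change 0.19 ± 0.06 SE, adjusted p = 0.0359), a call kept in 2 of 6 fits and lost without Nterm/Nterm 1 (0.0947), Nterm/Nterm 3 (0.11), wt/wt 1 (0.172) or wt/wt 2 (0.113). The genotypes of each of the 3 did not overlap in RNA. None of them passed in footprints (log2 changes NCAM1 0.21 ± 0.09, NCAM2 0.17 ± 0.08 and THY1 0.21 ± 0.07, adjusted p = 0.151, 0.153 and 0.0588). ALCAM (log2 change 0.07 ± 0.04 in RNA) and DSCAM (0.05 ± 0.07) passed in neither assay.

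The L1 family, whose members link the axon surface to ankyrin, passed in neither assay, although all 4 RNA log2 changes were positive: L1CAM at 0.12, CHL1 at 0.19, NRCAM at 0.11 and NFASC at 0.16 (adjusted p from 0.0527 for NFASC to 0.145 for NRCAM). L1CAM RNA was at 805, 794 and 831 CPM in wt/wt and 855, 857 and 923 CPM in Nterm/Nterm, and its genotypes did not overlap. The contactins CNTN1, CNTN2 and CNTN4 and the contactin-associated proteins CNTNAP1 and CNTNAP2 were also called in neither assay, with RNA log2 changes from -0.09 (CNTN4) to 0.08 (CNTNAP2). Of the SynCAMs and nectins, CADM1, CADM2, CADM3, NECTIN1 and NECTIN3 passed in neither assay. CADM4 was called in footprints, at 123, 144 and 144 CPM in wt/wt and 161, 164 and 164 CPM in Nterm/Nterm (log2 change 0.25 ± 0.07 SE, adjusted p = 0.0234), with an RNA log2 change of 0.11 ± 0.05 (adjusted p = 0.142). The CADM4 footprint call was kept in 2 of 6 fits and lost without Nterm/Nterm 1 (0.055), Nterm/Nterm 2 (0.0524), Nterm/Nterm 3 (0.0549) or wt/wt 1 (0.146), wt/wt footprint library 1 being the lowest of the 6.

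RNA and footprint changes of the adhesion genes ran in parallel. Over the 56 genes, Pearson's r between the log2 changes of the assays was 0.89 and Spearman's rho 0.82, beside a Pearson's r of 0.85 over 10718 named transcripts. These are descriptions across genes, which are not independent replicates. The sign was shared by 50 of 56 genes. Both assays called 10 genes, 7 of them higher and 3 lower, and none in opposite directions, while 10 were called in RNA only, 3 in footprints only and 33 in neither. A call in 1 assay and not in the other does not show that the assays differ, and the test of that difference follows.

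**Figure D3:**
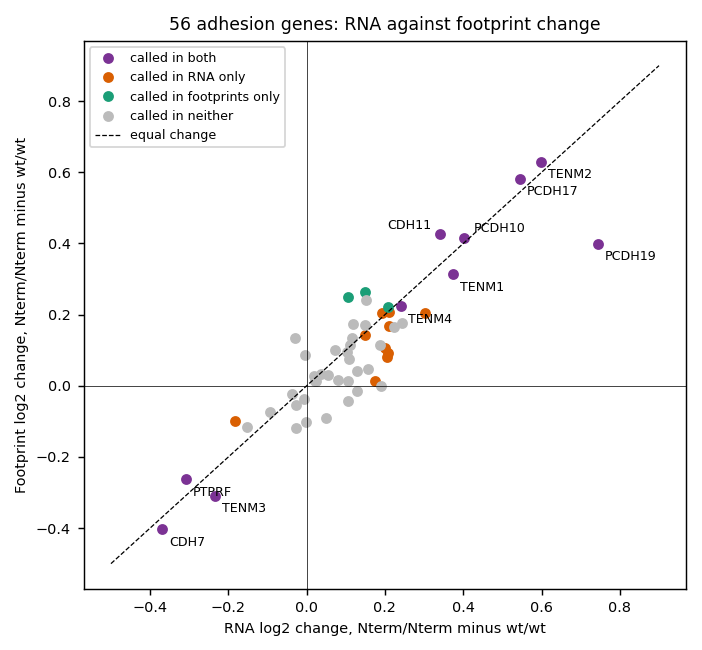
RNA log2 change (horizontal) against footprint log2 change (vertical) of the 56 adhesion genes, Nterm/Nterm minus wt/wt, with colour for the assays in which a gene was called and a dashed line for equal change. The 10 genes called in both lie in the upper right or the lower left, and PCDH19 lies farthest below the line, at 0.74 in RNA and 0.40 in footprints.

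Translational efficiency, footprints relative to RNA, was not called changed for any of the 56 genes. EdgeR, DESeq2 and limma-voom each gave 0 genes past an adjusted p of 0.05 and 0 at an unadjusted p under 0.05, and DESeq2 set no adjusted p for 43 of the 56. Over all 14786 transcripts tested, edgeR called 3 (0.0203%) and 4.6% had an unadjusted p under 0.05. The log2 changes in efficiency ran from -0.34 (PCDH19) to 0.17 (PCDH8), with a median of -0.01, and 39.3% of the 56 were positive, where 55.3% of the named transcripts were. PCDH19, with -0.34 ± 0.16 (SE, unadjusted p = 0.0502), lay closest to the threshold. Its ratio of footprint to RNA CPM was 1.61, 1.86 and 1.72 in the wt/wt footprint libraries and 1.28, 1.33 and 1.48 in the Nterm/Nterm ones. Each ratio divides 1 footprint library by the mean RNA CPM of its genotype, so the spread of RNA is left out of these values. In the authors' deposited table, 2 of the 56 had an unadjusted p under 0.05, where 4.7% of all named transcripts in it did. They were PCDH19 (ratio of Nterm/Nterm to wt/wt 0.785, p = 0.0244) and NFASC (0.919, p = 0.0393), in the authors' deposited table.

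The level of translational efficiency in wt/wt neurons differed widely between the adhesion genes. It is given here as footprint CPM of each of 3 libraries over the mean RNA CPM, so its SD holds the spread of footprints only. The median over the 56 was 1.25, beside 1.16 over 10718 named transcripts, and 36 of the 56 lay above the latter. The highest values were those of PCDH8 (3.12 ± 0.193, SD, n = 3) and CDH2 (2.84 ± 0.161) and the lowest those of NLGN2 (0.390 ± 0.0339) and LRFN4 (0.413 ± 0.0388), whose libraries overlapped. All 7 cadherins lay above the median of the named transcripts, from 1.30 (CDH4) to 2.84 (CDH2). Of the 9 postsynaptic neuroligins and leucine-rich repeat proteins, 3 did, with a median of 0.910. In the contactin group 4 of 5 lay above it, with a median of 2.09, in the protocadherins 5 of 7, and in the teneurin, latrophilin and FLRT group 5 of 9. Within families the values also spread: NLGN2 was at 0.390 ± 0.0339 and NLGN3 at 1.29 ± 0.0684, FLRT2 at 0.741 ± 0.0640 and FLRT3 at 2.15 ± 0.120, and NCAM1 at 1.29 ± 0.150 and NCAM2 at 2.60 ± 0.246. The sources used here do not give which part of each transcript was counted in the 2 assays, and its part in differences between genes was not tested.

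**Figure D4:**
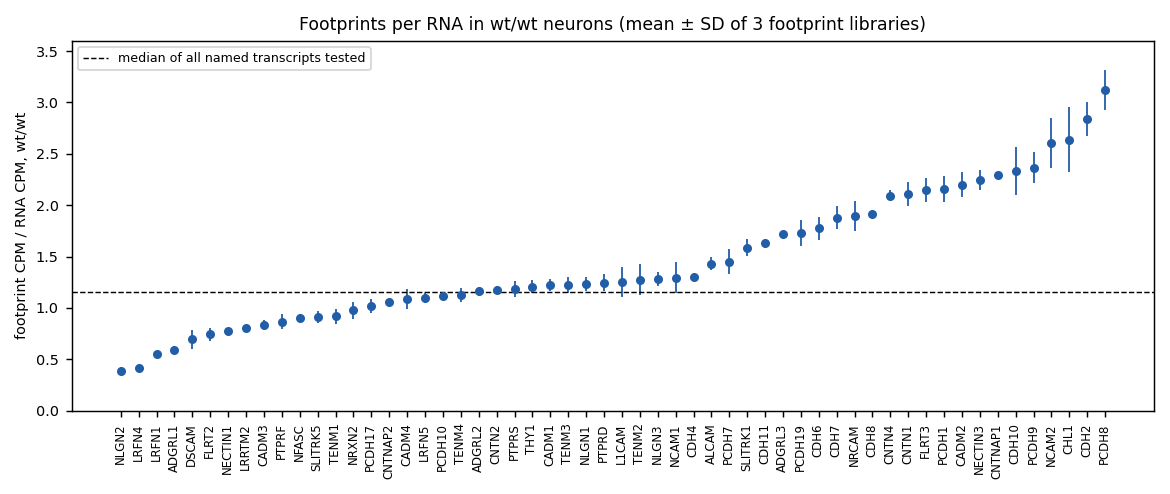
Footprint CPM over mean RNA CPM in wt/wt neurons for the 56 adhesion genes in rising order; points are means and bars SDs over 3 footprint libraries, and the dashed line is the median of the named transcripts tested. Values run from 0.390 (NLGN2) to 3.12 (PCDH8).

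Genes that work with these molecules were read from lists set by name, also with earlier results of these data known. Log2 changes ± SE are in brackets. The shares of all named transcripts to read their counts against were 8.92% higher and 11.7% lower in RNA, and 4.81% and 8.14% in footprints. A list of 65 further adhesion genes held members of the same families and of other adhesion families, and 39 had a named transcript. Of the 39, 11 were higher and 6 lower in RNA (28.2% and 15.4%), and 5 and 5 in footprints (12.8% each). The shares of lower genes thus lay near those of all named transcripts. The contactin CNTN5 rose most in RNA (0.66 ± 0.12) and the multi-pass cadherin CELSR1 fell most (-0.67 ± 0.08), and both calls held in all 6 fits. In footprints the extremes were again CNTN5 (0.58 ± 0.12) and CELSR1 (-0.54 ± 0.11). The cadherin CDH1, listed with the pluripotent markers and not among these 39, was lower in RNA (-0.35 ± 0.07), called in all 6 fits. Its footprints were not called (-0.21 ± 0.09, adjusted p = 0.106). Of 15 named ligands and modulators, 4 were higher and 5 lower in RNA (26.7% and 33.3%), and 1 and 3 in footprints (6.67% and 20.0%). The glypican GPC4, a heparan sulfate proteoglycan that binds postsynaptic leucine-rich repeat proteins, fell in RNA (-0.72 ± 0.09) and in footprints (-0.69 ± 0.12). The netrin receptor UNC5D, which binds FLRT proteins, rose in RNA (0.33 ± 0.09), a call kept in 3 of 6 fits, and the cerebellin CBLN1, a ligand of neurexins, was the one gene higher in footprints (0.41 ± 0.12), kept in 1 of 6.

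All 41 cytoplasmic anchors, scaffolds and catenins on their list had a named transcript. In RNA 12 were higher and 3 lower (29.3% and 7.32%), with a median log2 change of 0.07, and in footprints 5 and 2 (12.2% and 4.88%). The scaffold MAGI1 rose most in RNA (0.28 ± 0.05, called in all 6 fits) and the band 4.1 protein EPB41L2 fell most (-0.36 ± 0.11, called in 1 of 6 fits). In footprints the postsynaptic scaffold SHANK1 rose most (0.40 ± 0.09) and EPB41L2 fell most (-0.48 ± 0.10), each called in all 6 fits. A list of 16 genes held proteases that cut adhesion molecules and subunits of protease complexes. It had 0 higher and 5 lower in RNA (31.2%), and 0 higher and 5 lower among the 15 tested in footprints (33.3%). Its largest decrease was in the matrix metalloproteinase MMP2, at -0.88 ± 0.11 in RNA and -0.74 ± 0.10 in footprints, called in all 6 fits of each assay.

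Markers of cell types gave these values in the same libraries. All 14 neuronal markers had positive estimates in both assays, and 7 were called higher in RNA, with a median log2 change of 0.15, beside 0.12 over the adhesion genes. Their summed RNA level was 14854 to 15884 CPM of the library totals in wt/wt and 17101 to 18371 CPM in Nterm/Nterm. Of 21 mesenchymal markers 11 had a named transcript, and 9 of these were lower and 1 higher in RNA, the latter being THY1, which is also among the adhesion genes. The summed mesenchymal level was 4133 to 5077 CPM in wt/wt RNA and 2698 to 3573 CPM in Nterm/Nterm RNA, and in footprints, where 8 were lower and 0 higher, 5792 to 6668 CPM and 4095 to 5353 CPM. COL1A1 fell by 1.31 on the log2 scale, and no named marker was at 0. Of 15 neural progenitor markers, 10 were named, and 6 of these were lower and 1 higher in RNA, with summed levels of 1278 to 1383 CPM in wt/wt and 1025 to 1199 CPM in Nterm/Nterm. In RNA, 3 of 7 named markers of pluripotent cells were lower and 0 higher, of the cell cycle 4 of 6 and 0, of neural crest and Schwann cells 2 of 3 and 0, and of astrocytes and oligodendrocytes 1 of 3 and 1. The defining markers DCN, LUM, PDGFRA, PAX6, GFAP, SOX10 and POU5F1 had no named transcript and were not analysed here.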

How the data were processed

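Whole-number counts per transcript were deposited by the authors for 12 libraries, without normalisation. Per the submitters' processing notes, the tools were Salmon 1.4.0, Bowtie2 2.3.4.3, UMI-tools 1.0.1, cutadapt 2.4, limma and edgeR, with build GRCh37, and neither their roles nor the treatment of multi-mapping reads is given in the sources used here. The authors' deposited table of translational efficiency gives, per the file headers, the ratio of footprints to RNA per genotype and an unadjusted p-value. It also pairs transcripts with gene names, and each named transcript had at least 1016 counts in all.

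Here, edgeR 4.0.16 in R 4.3.3 was run on all transcripts: TMM scaling, filterByExpr, quasi-likelihood F test, two-sided, Benjamini-Hochberg adjustment over all transcripts tested, threshold 0.05. RNA and footprints were fitted separately (3 against 3 libraries), and translational efficiency as the genotype-by-assay interaction in all 12 libraries, with scaling within each assay. TMM makes each change relative to most other transcripts. The SE of a log2 change is the size of the change over the square root of F. The fits were tested on simulated data. Alternatives were DESeq2 1.42.0, limma-voom (limma 3.58.1), RLE size factors, no low-count filter, each library left out, a replicate block and the genotype tag. Replicates of a group differed by more than counting noise. The members and gene lists were chosen with earlier results of these data known. Values in every library were given for called members with non-overlapping genotypes, up to the 12 largest changes per assay. They were also given for the members with the most RNA counts. The members of highest and lowest efficiency were named with a mean and SD. The largest called change in each direction of each related list was named with its SE. C-terminal protein sequences, also foreseen, were not used here. Promoter sequences came from RefSeq (GRCh38.p14).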

Additional observations from a re-analysis of the deposited data

How the results depend on the processing

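No called change reversed its direction under any alternative run on it: RLE size factors, DESeq2, limma-voom, no low-count filter, the replicate block or leaving out 1 library. With the replicate number as a block, 33 adhesion genes were higher and 4 lower in RNA, and 13 and 2 in footprints. The shares of all transcripts called under the alternatives are not given here. The counts of this section are therefore not to be set against the shares of the main fits. The labels give no meaning to the number, and deviations of same-numbered libraries correlated at 0.0860, 0.103 and 0.1003 in RNA and 0.0412, 0.0982 and 0.223 in footprints; every RNA library correlated best with its own number, and not every footprint library did. Leaving out 1 library gave 5 to 21 higher and 1 to 4 lower genes in RNA, and 4 to 9 higher and 2 to 3 lower in footprints. With genotypes taken from the tag, 3 genes had more and 10 fewer footprints, and translational efficiency was called higher for 4 and lower for 23. The tag reverses the footprint change of every transcript relative to its RNA change, so these efficiency counts are not read as a trait of the adhesion genes. With genotypes from the titles, efficiency gave 0 calls under each of those alternatives. RLE size factors, DESeq2, limma-voom and no low-count filter gave 16 to 18 higher and 4 lower genes in RNA, and 9 to 13 and 3 in footprints. The median efficiency of the adhesion genes in wt/wt was 1.26 with plain library totals. The 3 genes called in both assays in every fit that left out 1 library were TENM2, CDH11 and PCDH17. The smallest called changes were of 10.9% in RNA and 16.7% in footprints, so smaller ones, and larger ones in genes of few counts, may be among the uncalled.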
